A study of Mus musculus with 21 samples.

Results

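The genes described here encode enzymes that turn prohormones into peptides, and granins, the acidic proteins that fill dense core vesicles beside them. The members are *Pcsk1*, *Pcsk2*, *Cpe*, *Pam*, *Scg2*, *Scg3*, *Scg5*, *Chga*, *Chgb* and *Vgf*, which were chosen by name and are 10 of the 21654 genes in the deposited count table. All 10 were present, and all 10 averaged at least 50 reads over the 21 libraries, the minimum for a test. RNA came from the ventral hypothalamus (VH), named circumventricular hypothalamus in the sample labels, of male C57BL/6J mice acquired at 12 to 14 weeks of age. Each library held polyA RNA from punches of 2 animals of one condition, pooled in equal amounts, so that individual mice cannot be seen. Punches were aimed at the arcuate, ventromedial and paraventricular nuclei, and those with too little *Agrp* and *Pomc* relative to *Hcrt* had been left out by the authors.

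RC NoDS mice (5 libraries, labelled RC Only) ate regular chow (RC) throughout and had No Diet Switch. HFD NoDS mice (5 libraries, labelled HFD Only) ate a high-fat diet (HFD) throughout. RC → HFD mice (6 libraries) were moved from RC to HFD at the Diet Switch (DS), and HFD → RC mice (5 libraries) were moved from HFD to RC. Tissue was collected on day 7 after the DS, and every animal was first kept awake for 3 h with unfamiliar objects and sacrificed near Zeitgeber time 6. Values are reads per gene in libraries that the authors had brought to one depth by re-sampling, and totals ran from 16380781 to 16390598 reads per library.

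Libraries differed in how many weakly expressed genes they detected. Among 3116 genes averaging 5 to 50 reads, the share with a count of 0 ran from 1.12 to 7.22% in RC NoDS, 2.31 to 22.4% in RC → HFD, 5.68 to 31.9% in HFD → RC and 7.7 to 32.9% in HFD NoDS. HFD NoDS replicate 20 had the highest share and HFD → RC replicate 17 the next highest. All 45 pairs of libraries within a group differed by more than sampling of reads (chi-square per degree of freedom 5.62 to 33), and 0 pairs were identical.

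Most neuropeptides are made as long precursors that enter the regulated secretory pathway and are cut after paired basic residues by the prohormone convertases PC1/3 (*Pcsk1*) and PC2 (*Pcsk2*). The exposed basic residues are then trimmed by carboxypeptidase E (*Cpe*), and many peptides are amidated at their C-terminus by peptidylglycine α-amidating monooxygenase (*Pam*). Granins aggregate with the cargo in the trans-Golgi network, help vesicles to form, and are themselves cut into peptides. In the hypothalamus the same enzymes act on the precursors of melanocortins, TRH, NPY and many other peptides that regulate feeding.

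The edgeR quasi-likelihood test called 0 of the 10 members in any of the 8 comparisons. A gene was called when its Benjamini-Hochberg adjusted p was under 0.15. EdgeR adjusted over all 12768 genes tested, and DESeq2 over fewer in RC → HFD v RC NoDS. Over the 6 pairs of groups, the 60 member fold changes lay between -0.24 and 0.32 on the log2 scale, and 56 of the 60 95% intervals lay within 0.5 of 0 on that scale. Since p-values rest on the spread between libraries, a p above the threshold does not show that 2 groups were equal. A bulk library also cannot tell apart fewer cells of a type and less RNA per cell, and that holds for every value below.

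Obesity on a stable diet was addressed by HFD NoDS v RC NoDS. In that pair edgeR called 0 of 10 members v 0.0783% of all genes tested, and 1 member (*Cpe*) had an unadjusted p under 0.05 v 7.41% of all genes. Reads of 0 members kept the groups apart without overlap v 0.893% of all genes. DESeq2 called 0 members and 17 of all genes, and limma-voom called 0 members and 10 of all genes. The members' median log2 fold change was -0.02 v 0.01 for all genes.

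The weight-matched switch groups were compared in HFD → RC v RC → HFD. EdgeR called 0 members v 0.00783% of all genes, 0 had an unadjusted p under 0.05 v 5.35%, and 0 were without overlap v 0.486%. DESeq2 called 0 members and 5 of all genes, and limma-voom called 0 members and 1 of all genes. The members' median fold change was -0.03 on the log2 scale v 0 for all genes, and *Vgf* had the lowest value (-0.22, 95% interval -0.47 to 0.04).

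One week of HFD after RC (RC → HFD v RC NoDS) gave 0 members called by edgeR v 0.0392% of all genes. One member, *Pcsk2*, had an unadjusted p under 0.05 (1 of 10 v 6.51% of all genes), and 0 members were without overlap v 1.17%. DESeq2 called 1 member, *Pcsk2*, and 96 of all genes, and limma-voom called 0 members and 5 of all genes. The members' median was -0.03 v 0 for all genes.

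Mice with an earlier HFD and one week of RC were set against mice always on RC (HFD → RC v RC NoDS). EdgeR called 0 members v 0.282% of all genes, and *Pcsk2* was again the 1 member with an unadjusted p under 0.05, v 8.10% of all genes. It was also the 1 member of 10 whose reads did not overlap between the groups, v 1.32% of all genes. DESeq2 called 0 members and 147 of all genes, and limma-voom called 0 members and 7 of all genes. The members' median was -0.05 v 0.

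The length of HFD feeding was compared in HFD NoDS v RC → HFD. EdgeR called 0 members v 0.0157% of all genes, 0 had an unadjusted p under 0.05 v 7.49%, and 0 were without overlap v 0.744%. One week of RC after HFD was compared in HFD NoDS v HFD → RC. There edgeR called 0 members v 0.0705%, 2 (*Cpe* and *Chgb*) had an unadjusted p under 0.05 v 7.93%, and 0 were without overlap v 1.02%. DESeq2 called 0 members in either pair (v 32 and 44 of all genes), and so did limma-voom (v 2 and 12 of all genes). The members' medians were 0 and 0.04 v 0 for all genes.

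Across all 4 groups edgeR called 0 members v 0.149% of all genes, and 2 (*Pcsk2* and *Cpe*) had an unadjusted p under 0.05 v 7.97%. DESeq2 called 0 members and 133 of all genes, and limma-voom called 0 members and 13 of all genes. The interaction asks whether the difference made by the current diet depends on the earlier diet, and is the fold change HFD NoDS v HFD → RC minus the fold change RC → HFD v RC NoDS. EdgeR called 0 members v 0.0313% of all genes, and 1, *Pcsk2*, had an unadjusted p under 0.05 v 8.84%. DESeq2 called 1 member, *Pcsk2*, and 116 of all genes, and limma-voom called 0 members and 15 of all genes.

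**Figure D1:**
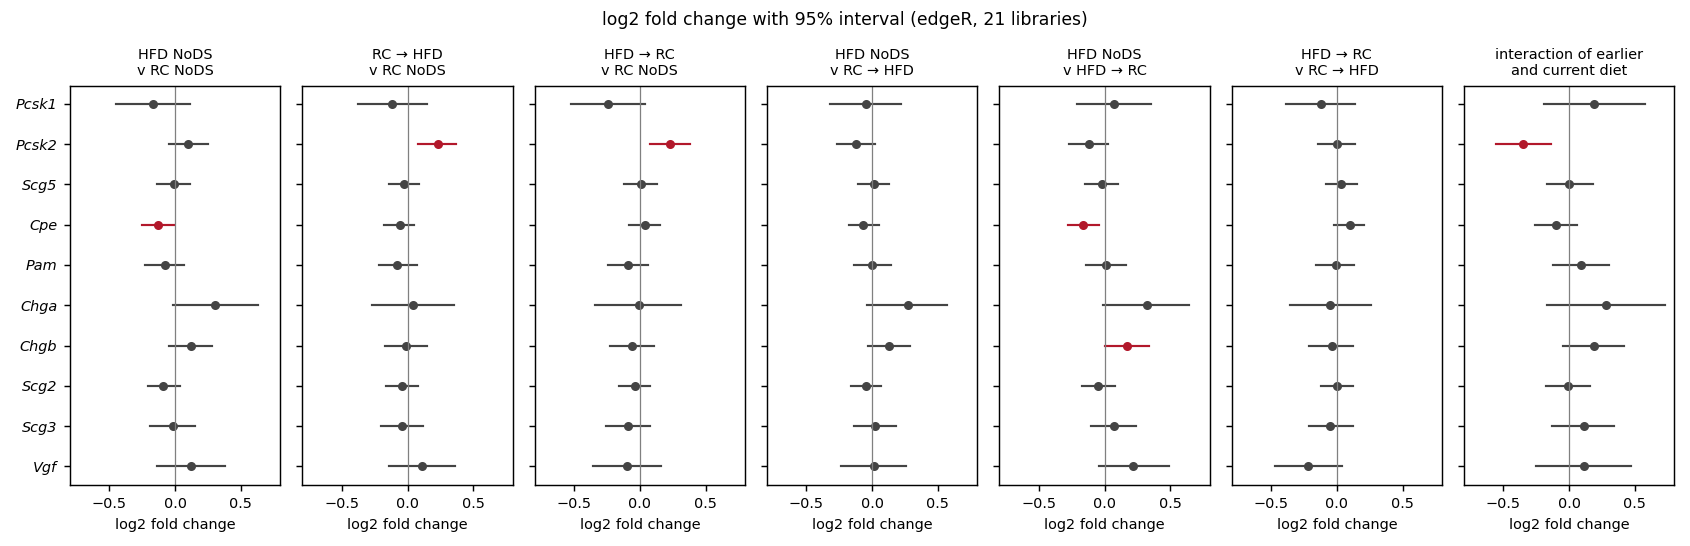
Log2 fold changes (x axis) of the 10 genes (y axis) in the 6 pairs of diet groups and the interaction, fitted by edgeR over 21 libraries. Points are estimates, bars are 95% intervals and red marks an unadjusted p under 0.05. *Pcsk2* lies to the right of 0 in RC → HFD and HFD → RC v RC NoDS (0.23 in each) and to the left in the interaction (-0.35), and *Chga* has the widest intervals.

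Within these libraries the members were abundant. Reads per kilobase of exon, the scale on which different genes can be compared, averaged 12749 for *Cpe* and 9988 for *Scg2*, in places 16 and 31 among the 12768 genes tested. The median gene had 146. *Chga* (4144), *Vgf* (3514), *Scg5* (3024), *Chgb* (2899) and *Scg3* (2059) followed, then *Pam* (1255), *Pcsk2* (570) and *Pcsk1* (385, place 2816).

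That order was the same in every library for most neighbours. *Cpe* exceeded *Scg2*, *Scg2* exceeded *Chga*, *Chgb* exceeded *Scg3*, *Scg3* exceeded *Pam*, *Pam* exceeded *Pcsk2* and *Pcsk2* exceeded *Pcsk1* in 21 of 21 libraries. In between, the order of neighbours was not stable. *Chga* was above *Vgf* in 13 of 21 libraries, *Vgf* above *Scg5* in 16 and *Scg5* above *Chgb* in 11. *Chga* itself was above *Chgb* in every library, with a ratio of *Chgb* to *Chga* per kilobase of at most 0.967.

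**Figure D2:**
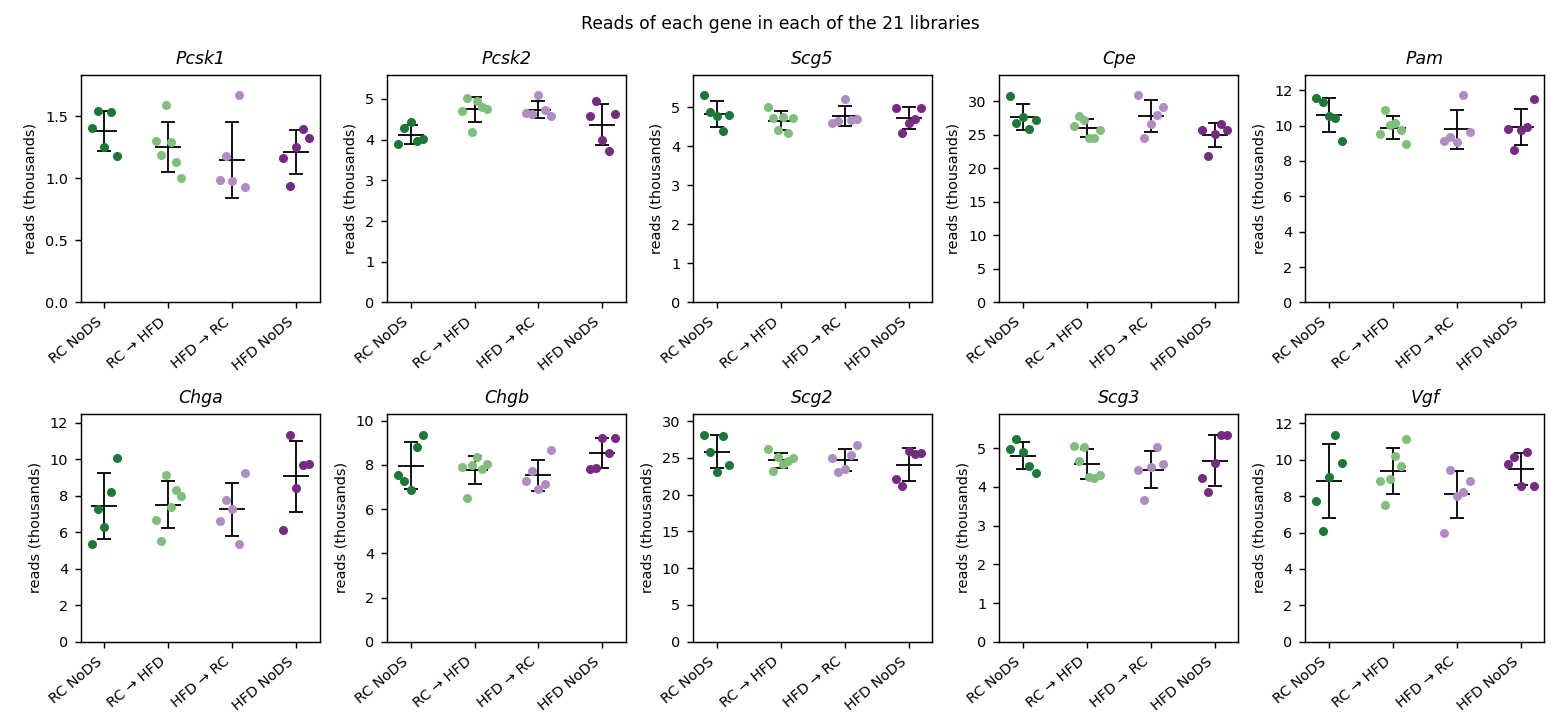
Reads (in units of 1000, y axis from 0) of each of the 10 genes in each library, by diet group (x axis). Points are libraries, horizontal lines are group means and bars are 1 SD (n = 5, 6, 5 and 5 from left to right). The *Pcsk2* reads of all 5 HFD → RC libraries (4587 to 5092) lie above all 5 RC NoDS libraries (3904 to 4424), and the groups of the other 9 genes overlap in every pair.

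PC2, the product of *Pcsk2* (ENSMUSG00000027419, chr2:143371892-143642021 on the + strand of mm9, Ensembl 67), acts late in the pathway and makes short products such as α-MSH. RC NoDS libraries had 3904, 4299, 4424, 3964 and 4019 *Pcsk2* reads. RC → HFD libraries had 4183 at the lowest, 4788 at the median and 5030 at the highest, HFD → RC libraries 4666, 4632, 5092, 4730 and 4587, and HFD NoDS libraries 4580, 4958, 3983, 3710 and 4620. Both switch groups were thus high, with 5 of 6 RC → HFD and 5 of 5 HFD → RC libraries above every RC NoDS library, while HFD NoDS spread over the range of RC NoDS and of the switch groups. The means were 4122 ± 227 for RC NoDS (SD, n = 5), 4370 ± 509 for HFD NoDS (n = 5), 4743 ± 299 for RC → HFD (n = 6) and 4741 ± 203 for HFD → RC (n = 5).

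*Pcsk2* was 17.1% higher in RC → HFD than in RC NoDS (log2 fold change 0.23, SE 0.0701, 95% interval 0.08 to 0.37) and was not called (edgeR adjusted p = 0.574). In HFD → RC v RC NoDS the log2 fold change was also 0.23 (SE 0.073, interval 0.08 to 0.38; edgeR adjusted p = 0.298). Both comparisons share the 5 RC NoDS libraries. HFD NoDS v RC NoDS gave 0.10 (interval -0.05 to 0.25), or 0.05 without HFD NoDS replicate 20 (4958 reads) and 0.16 without replicate 23 (3710 reads), and the switch groups differed from each other by 0 (interval -0.14 to 0.14). On HFD rather than RC, *Pcsk2* was thus higher by 0.23 when the earlier diet was RC, and the same contrast was -0.12 (interval -0.27 to 0.03) when it was HFD. Leaving out 1 library moved the last value to between -0.18 and -0.07, the latter without HFD NoDS replicate 23, which had the fewest *Pcsk2* reads of all (3710). The interaction was -0.35 (SE 0.101, interval -0.56 to -0.14) and was not called (edgeR adjusted p = 0.246).

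DESeq2, which called 96 genes in RC → HFD v RC NoDS and 116 in the interaction where edgeR called 5 and 4, called *Pcsk2* in both (adjusted p = 0.0576 and 0.13). In RC → HFD v RC NoDS, DESeq2 adjusted over fewer genes than edgeR. The unadjusted p of *Pcsk2* in that pair was 0.00176 by DESeq2 and 0.00292 by edgeR. HFD NoDS replicate 20 had the most *Pcsk2* reads of its group and the highest share of zero counts. When it was left out the edgeR interaction was -0.40 and was called (adjusted p = 0.104) among 123 of 12755 genes, while over all alternatives its adjusted p ran from 0.0859 to 0.495. Exons of *Pcsk2* overlap the genes *C630020P19Rik* and *Gm12360* on the other strand. Whether strand was used in counting is not given in the sources used here, so reads of these genes cannot be told apart from those of *Pcsk2* with certainty.

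PC1/3, encoded by *Pcsk1* (ENSMUSG00000021587, chr13:75227274-75269946, + strand), makes the first cuts in precursors such as pro-opiomelanocortin. Its reads were 1406, 1542, 1249, 1531 and 1181 in RC NoDS, and 998, 1242 and 1592 at the lowest, median and highest in RC → HFD. HFD → RC libraries had 988, 1178, 978, 1668 and 931 reads, and HFD NoDS libraries 1164, 938, 1249, 1393 and 1327. In HFD → RC, 4 of 5 libraries lay below every RC NoDS library, and the remaining one, replicate 16, lay above them all.

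Taken over all 5 libraries, *Pcsk1* in HFD → RC v RC NoDS had a log2 fold change of -0.24 (SE 0.136, interval -0.52 to 0.04; edgeR adjusted p = 0.675). Without replicate 16 the log2 fold change was -0.41 and *Pcsk1* was called by edgeR among 203 of 12782 genes (adjusted p = 0.128, v 0.128 to 0.98 over all alternatives), so that 1 library decides this result. Replicate 16 also had the fewest oligodendrocyte marker reads of HFD → RC, 45451 v 102371, 136772, 78851 and 63279 in replicates 13, 14, 15 and 17. RC NoDS libraries had 37205, 43078, 53471, 38002 and 55635 of these reads. With the mean of these markers as a covariate, an alternative chosen after seeing the data, the *Pcsk1* log2 fold change was -0.04, and with the share of zero counts as a covariate it was -0.09. Marker reads averaged 85345 in HFD → RC and 45478 in RC NoDS, so a fit with this covariate cannot tell them apart from diet. The part of either measure in the *Pcsk1* reads was not tested.

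Read as a ratio per kilobase, *Pcsk2* to *Pcsk1* was 1.24 ± 0.174 for RC NoDS (SD, n = 5), 1.52 ± 0.407 for HFD NoDS (n = 5), 1.59 ± 0.301 for RC → HFD (n = 6) and 1.77 ± 0.392 for HFD → RC (n = 5). The mean was lowest in RC NoDS, where libraries ran from 1.06 to 1.45, and the ranges of HFD NoDS (1.09 to 2.17), RC → HFD (1.08 to 1.96) and HFD → RC (1.16 to 2.13) overlapped it. This ratio was formed after the reads had been seen and is given without a test.

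7B2, the product of *Scg5* (ENSMUSG00000023236, chr2:113616519-113669278, - strand), binds the PC2 precursor and is needed for its maturation. *Scg5* was the steadiest member, with 4344 to 5311 reads over the 21 libraries and a ratio of highest to lowest of 1.22. Group means were 4835 ± 326 for RC NoDS (SD, n = 5), 4725 ± 275 for HFD NoDS (n = 5), 4662 ± 243 for RC → HFD (n = 6) and 4773 ± 255 for HFD → RC (n = 5). Where *Pcsk2* differed by 0.23 from RC NoDS in the switch groups, the *Scg5* log2 fold changes were -0.03 (interval -0.14 to 0.09) in RC → HFD and 0.01 (interval -0.12 to 0.13) in HFD → RC.

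Carboxypeptidase E, from *Cpe* (ENSMUSG00000037852, chr8:67071355-67171837, - strand), removes the basic residues that the convertases leave behind and also takes part in sorting cargo to vesicles. *Cpe* had 30871, 26777, 27668, 25817 and 27162 reads in RC NoDS. RC → HFD ran from 24529 through a median of 25968 to 27802, HFD → RC libraries had 30929, 24513, 26666, 28027 and 29146 reads, and HFD NoDS libraries 25679, 21928, 25189, 26566 and 25683. HFD NoDS was the low group, with 4 of 5 libraries below every RC NoDS library, and 4 of 5 HFD → RC libraries lay above every HFD NoDS library.

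The *Cpe* log2 fold change was -0.16 in HFD NoDS v HFD → RC (SE 0.0578, interval -0.28 to -0.04; edgeR adjusted p = 0.53) and -0.13 in HFD NoDS v RC NoDS (SE 0.0578, interval -0.25 to -0.01; edgeR adjusted p = 0.657). Neither was called. The second value was -0.06 with the share of zero counts as a covariate, and the first was -0.17. Over all alternatives the second ran from -0.15 to -0.06. Its lowest adjusted p was 0.342 (edgeR, neuron markers as a covariate). HFD NoDS replicate 20 had the fewest *Cpe* reads of all 21 libraries.

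*Pam* (ENSMUSG00000026335, chr1:99691691-99992223, - strand) encodes the amidating enzyme on which α-MSH, TRH and NPY depend for activity. It had 8632 to 11714 reads, with means of 10597 ± 959 for RC NoDS (SD, n = 5), 9920 ± 1020 for HFD NoDS (n = 5), 9871 ± 642 for RC → HFD (n = 6) and 9787 ± 1100 for HFD → RC (n = 5). Each of the other 3 groups had a lower mean than RC NoDS by less than the SD of RC NoDS. The log2 fold changes against RC NoDS were -0.08 in HFD NoDS, -0.08 in RC → HFD and -0.09 in HFD → RC (intervals from -0.24 to 0.07). Over all alternatives they ran from -0.13 to 0.03, -0.17 to -0.03 and -0.16 to 0.06. The first and the last changed sign under 1 alternative each. Other genes lie within the introns of *Pam*, and no annotated gene overlaps its exons.

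Chromogranin A, from *Chga* (ENSMUSG00000021194, chr12:103793179-103803237, + strand), is the granin by which dense core vesicles are commonly recognised, and is cut into pancreastatin, vasostatin and catestatin. RC NoDS libraries had 5346, 7284, 6263, 8218 and 10062 *Chga* reads. RC → HFD libraries had 5520, 7698 and 9130 at the lowest, median and highest, HFD → RC libraries 6602, 7784, 7300, 5344 and 9222, and HFD NoDS libraries 6111, 11356, 8429, 9675 and 9756. HFD NoDS had the highest mean and also the highest single library, with 3 of 5 libraries above every RC → HFD and every HFD → RC library, but 1 RC NoDS library reached 10062.

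*Chga* had the 2 largest fold changes among members in pairs of groups, 0.32 on the log2 scale in HFD NoDS v HFD → RC (SE 0.158, interval -0.01 to 0.64; edgeR adjusted p = 0.638) and 0.30 in HFD NoDS v RC NoDS (SE 0.158, interval -0.02 to 0.63; edgeR adjusted p = 0.672). Neither passed, and the intervals reach from about no difference to 54.4% higher in the second pair. With the share of zero counts as a covariate the second value was 0.11. The first was 0.13 with neuron markers as a covariate. Leaving out 1 library moved the first to between 0.21 and 0.43 and the second to between 0.20 and 0.44. The lowest adjusted p over all alternatives was 0.37 for the first (edgeR, oligodendrocyte markers as a covariate). It was 0.316 for the second (edgeR, neuron markers as a covariate).

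Chromogranin B, from *Chgb* (ENSMUSG00000027350, chr2:132607014-132620815, + strand), is its companion in the vesicle core. *Chgb* had 7528, 7292, 6846, 8813 and 9374 reads in RC NoDS and 6489, 7950 and 8340 at the lowest, median and highest in RC → HFD. HFD → RC libraries had 7256, 7735, 6904, 7128 and 8658 reads, and HFD NoDS libraries 7829, 7859, 9218, 8559 and 9228. In HFD → RC, 4 of 5 libraries lay below every HFD NoDS library. HFD NoDS was 12.7% higher than HFD → RC (95% interval 0.343 to 26.7%; log2 fold change 0.17, SE 0.0821, edgeR adjusted p = 0.617), and *Chgb* was not called.

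Secretogranin II, from *Scg2* (ENSMUSG00000050711, chr1:79431244-79436665, - strand), is the precursor of secretoneurin and was the most abundant granin here. Its reads ran from 21196 to 28169, and its fold changes in the 6 pairs from -0.09 to 0 on the log2 scale. Secretogranin III, from *Scg3* (ENSMUSG00000032181, chr9:75491071-75531803, - strand), ties chromogranin A to the vesicle membrane. *Scg3* reads ran from 3675 to 5353, with fold changes from -0.09 to 0.07 on the log2 scale. For both genes every 95% interval in the 6 pairs included 0.

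*Vgf* (ENSMUSG00000037428, chr5:137506165-137509221, + strand) encodes a granin-like precursor whose peptides act on energy balance and which responds to neuronal activity. Its reads ran from 5988 to 11385, with means of 8826 ± 2020 for RC NoDS (SD, n = 5), 9493 ± 874 for HFD NoDS (n = 5), 9387 ± 1250 for RC → HFD (n = 6) and 8096 ± 1300 for HFD → RC (n = 5). HFD → RC had the lowest mean, at log2 fold changes of -0.22 (interval -0.47 to 0.04) v RC → HFD, while HFD NoDS v HFD → RC was 0.22 (interval -0.04 to 0.49). Without HFD → RC replicate 13, which had the fewest *Vgf* reads of all (5988), these values were -0.13 and 0.14. The groups overlapped in each pair.

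Members differed in how far libraries of one group lay apart. The within-group coefficient of variation was 20.9% for *Chga*, 18.2% for *Pcsk1* and 16.2% for *Vgf*, v 15% for the median gene tested. It was 5.82 to 10.5% for the other 7, and sampling of reads accounts for 0.613 to 2.83%. Reads of *Chga* ranged over a factor of 2.12 between libraries.

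HFD NoDS replicate 20 held the lowest count of its group for 6 members (*Pcsk1*, *Scg5*, *Cpe*, *Pam*, *Scg2* and *Scg3*) and the highest for 2 (*Pcsk2* and *Chga*). No other library was lowest for more than 4 of the 10. It also had the highest share of zero counts, 97730 oligodendrocyte marker reads, and 64980 neuron marker reads, the fewest of the 21 libraries. The part of these measures in the member counts of this library was not tested.

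Over the 21 libraries, with group means subtracted from log2 CPM (reads scaled to library size), the members did not move as one. Pearson's r over the 45 pairs ran from -0.63 to 0.70 with a median of -0.04, and 19 were positive and 26 negative. The largest was that of *Pcsk1* and *Pam* (r = 0.70, permutation p = 0.00271, Benjamini-Hochberg adjusted over the 45 pairs 0.0767). Spearman's rho was 0.67 (permutation p = 0.00235, adjusted 0.106), and r was 0.51 without the 2 libraries farthest from the median of *Pcsk1*. *Chga* and *Chgb* followed (r = 0.67, permutation p = 0.00341, adjusted 0.0767; rho = 0.63, permutation p = 0.00842, adjusted 0.118), with r = 0.66 without the 2 farthest libraries.

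*Pcsk2* and *Scg2* ran in opposite directions (r = -0.63, permutation p = 0.00843, adjusted 0.126; rho = -0.68, permutation p = 0.00478, adjusted 0.108), with r = -0.56 without the 2 farthest libraries. *Pcsk1* and *Pcsk2* had r = -0.45 (permutation p = 0.0357, adjusted 0.162) and rho = -0.37 (permutation p = 0.129, adjusted 0.321). Without the 2 farthest libraries their r was -0.44. Other pairs lay farther from 0, among them *Cpe* and *Scg3* (r = 0.58), *Pam* and *Scg3* (0.58), *Pam* and *Chga* (-0.56) and *Cpe* and *Vgf* (-0.49). No pair had an adjusted p under 0.05. The libraries share one re-sampled depth, and the same dissection sets every gene of a library, so these values describe the libraries only.

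**Figure D3:**
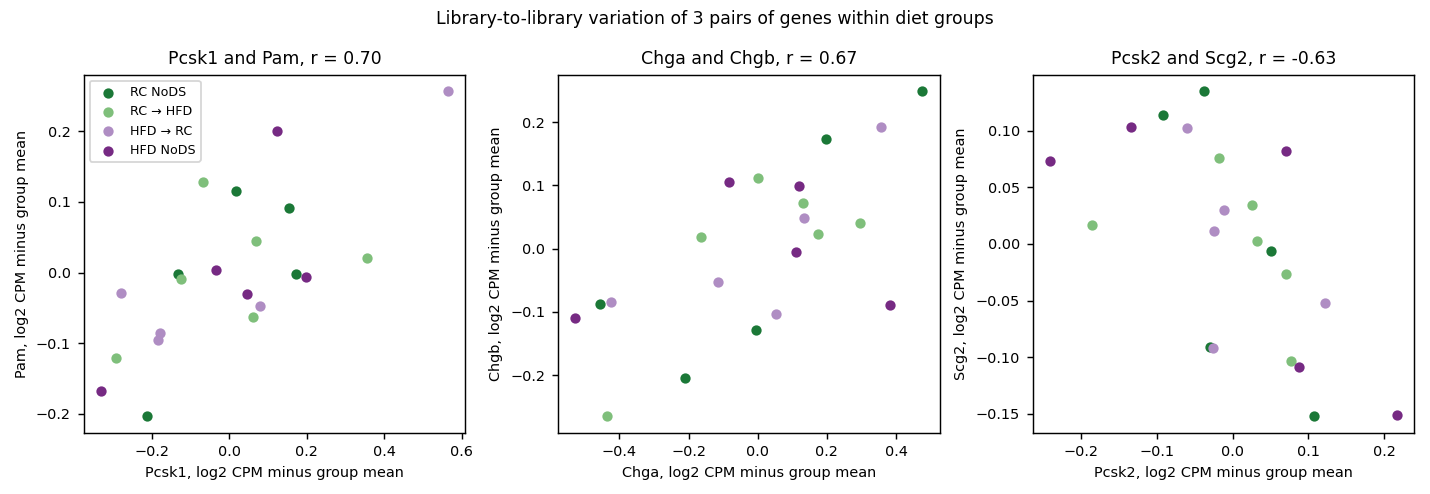
Log2 CPM minus the group mean of 1 gene against another in the 21 libraries, for *Pcsk1* and *Pam*, *Chga* and *Chgb*, and *Pcsk2* and *Scg2*. Each point is a library, coloured by diet group. The first pair rises together (r = 0.70) with HFD → RC replicate 16 at the upper right, the next pair also rises (r = 0.67), and the last falls (r = -0.63).

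The promoters of the genes in those 3 pairs other than *Pam* are printed because these pairs had the r farthest from 0. None of the pairs had an adjusted p under 0.05. RefSeq promoters of 300 bases (250 before to 50 after the gene start, GRCm38.p6) matched 8 of the 10 members, and *Cpe* and *Vgf* are named only. Capitals mark TGACGTCA (the cAMP response element, CRE), its core TGACG or CGTCA, the TATA box letters TATAAA or TTTATA, and the CCAAT box letters CCAAT or ATTGG, on either strand, and every CRE holds the core on both strands. Each is given 5′ to 3′ on the strand of its gene, *Pcsk1* from chr13:75089607-75089906 (+), *Pcsk2* from chr2:143545883-143546182 (+), *Chga* from chr12:102554691-102554990 (+), *Chgb* from chr2:132781392-132781691 (+) and *Scg2* from chr1:79439977-79440276 (-).
Pcsk1: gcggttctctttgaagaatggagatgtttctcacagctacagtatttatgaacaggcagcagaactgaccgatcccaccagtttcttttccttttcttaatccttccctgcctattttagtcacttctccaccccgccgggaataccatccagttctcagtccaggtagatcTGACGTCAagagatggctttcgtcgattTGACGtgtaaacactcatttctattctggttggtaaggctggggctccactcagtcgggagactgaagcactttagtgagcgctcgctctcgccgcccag
Pcsk2: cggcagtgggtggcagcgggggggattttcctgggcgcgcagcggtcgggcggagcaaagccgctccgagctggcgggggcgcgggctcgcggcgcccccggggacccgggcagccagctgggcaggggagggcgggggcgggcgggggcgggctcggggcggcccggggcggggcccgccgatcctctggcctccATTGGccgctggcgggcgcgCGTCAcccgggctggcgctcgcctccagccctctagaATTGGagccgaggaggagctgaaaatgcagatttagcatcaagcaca
Chga: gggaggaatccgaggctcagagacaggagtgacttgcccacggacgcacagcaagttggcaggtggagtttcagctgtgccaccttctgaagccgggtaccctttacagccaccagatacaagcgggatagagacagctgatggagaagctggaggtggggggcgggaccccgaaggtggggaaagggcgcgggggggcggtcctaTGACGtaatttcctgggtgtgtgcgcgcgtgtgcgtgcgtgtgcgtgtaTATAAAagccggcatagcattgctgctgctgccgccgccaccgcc
Chgb: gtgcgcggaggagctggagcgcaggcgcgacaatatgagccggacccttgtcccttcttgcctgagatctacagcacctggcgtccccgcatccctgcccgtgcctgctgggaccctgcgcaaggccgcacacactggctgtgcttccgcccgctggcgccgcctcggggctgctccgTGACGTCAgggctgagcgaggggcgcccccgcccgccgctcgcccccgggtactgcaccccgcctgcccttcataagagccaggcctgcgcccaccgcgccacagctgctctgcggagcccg
Scg2: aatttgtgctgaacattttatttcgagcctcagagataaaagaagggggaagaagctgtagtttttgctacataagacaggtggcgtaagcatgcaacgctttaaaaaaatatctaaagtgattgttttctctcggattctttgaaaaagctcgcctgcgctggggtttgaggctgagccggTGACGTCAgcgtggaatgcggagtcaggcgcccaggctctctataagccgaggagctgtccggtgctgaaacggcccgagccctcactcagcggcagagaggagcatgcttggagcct

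A full CRE began at position -78 from the start of *Pcsk1*, -72 from that of *Chgb* and -68 from that of *Scg2*. That is 3 of 8 members v 1.79% of 32851 mouse promoters of the same length. The core occurred in 7 of 8 members, *Pam* being without it, v 20.8% of promoters. TATAAA was found in *Chga* alone (1 of 8 v 13.6%), where it began at position 6, after the gene start and not before it. CCAAT was found in *Pcsk2* and *Scg3* (2 of 8 v 37.4%). GGGCGG or CCGCCC, not in capitals, was found in 6 of 8 v 35.7%, and CACGTG in 0 of 8 v 7.15%. A match describes letters in the window and is not a site shown to be used.

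The genes whose log2 CPM was most like that of each member over the 21 libraries were picked by Pearson's r among 12758 other genes, as a description without a test. *Vgf* was closest to *Ptprn* (r = 0.92), which encodes a membrane protein of dense core vesicles, and *Scg3* to *Wdr78* (r = 0.90). *Chga* was closest to *Igfbp5* (r = 0.89), *Pcsk1* to *Cyp51* (r = 0.88), *Pam* to *Snx14* (r = 0.86) and *Chgb* to *Erp29* (r = 0.82). *Scg2* was closest to *Tmem59* (r = 0.82), *Cpe* to *Vti1b* (r = 0.79) and *Scg5* to *Cisd2* (r = 0.73).

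For *Pcsk2* the closest genes were *Hapln4* (r = 0.88), *Nr2f2* (r = 0.87) and *Ppp2r2c* (r = 0.87). With group means subtracted they were *Car10* (r = 0.86), *Nr5a1* (r = 0.84), a transcription factor that marks neurons of the ventromedial nucleus, and *Fezf1* (r = 0.84). *Nr5a1* averaged 1006.2 ± 266 reads for RC NoDS (SD, n = 5), 1129.4 ± 503 for HFD NoDS (n = 5), 1432.2 ± 313 for RC → HFD (n = 6) and 1396.4 ± 490 for HFD → RC (n = 5), so that its means had the same order of high and low groups as those of *Pcsk2*. Its log2 fold changes v RC NoDS were 0.54 in RC → HFD and 0.50 in HFD → RC, and its interaction was -0.85 (edgeR adjusted p = 0.701, 0.608 and 0.432). All values share the libraries and their dissection, and the part of the position of the punch in the *Pcsk2* reads was not tested.

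Other genes of the pathway were counted from lists by the same edgeR test. Of 6 other convertases tested (such as *Mbtps1* and *Pcsk7*), 8 further processing partners and 19 genes of dense core vesicle transport and release, 0 were called in any comparison by edgeR. At an unadjusted p under 0.05 the comparisons held 0 to 1 of the convertases, 1 to 3 of the partners (3 of 8 in HFD → RC v RC NoDS, against 8.10% of all genes) and 1 to 4 of the vesicle genes (4 of 19 in HFD → RC v RC → HFD, HFD NoDS v RC → HFD and all 4 groups, against 5.35, 7.49 and 7.97%). The lowest p of the partners was that of *Ctsl*, cathepsin L, a protease that also cuts prohormones, at an interaction of 0.41 on the log2 scale (edgeR adjusted p = 0.176). Of 9 peptide-degrading enzymes tested, 0 were called by edgeR. In HFD NoDS v HFD → RC 2 had an unadjusted p under 0.05, v 7.93% of all genes, and in every other comparison 0 did. Over the comparisons edgeR called 0.00783 to 0.282% of all genes.

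Genes for the cargo were counted in the same way. Of 25 prohormone genes tested, edgeR called 5 in HFD NoDS v RC NoDS, v 0.0783% of all genes. *Trh* (log2 fold change 1.79, adjusted p = 2.36e-07), *Cartpt* (0.89, adjusted p = 0.00093) and *Hcrt* (2.71, adjusted p = 0.0513) were higher. *Npy* (-1.26, adjusted p = 7.79e-05) and *Agrp* (-0.97, adjusted p = 0.0507) were lower. The authors had reported *Trh*, *Cartpt*, *Npy* and *Agrp* for this pair from the same libraries, and followed them by quantitative PCR. The list was chosen with earlier results of these data known, so its counts are not independent of that report. In RC → HFD v RC NoDS edgeR called 3 (*Trh* higher, *Npy* and *Agrp* lower), v 0.0392% of all genes. In HFD → RC v RC NoDS it called 1 (*Trh*, higher), v 0.282%. It called 1 in HFD → RC v RC → HFD (*Npy*, higher), v 0.00783%, and 2 in HFD NoDS v HFD → RC (*Cartpt* higher, *Npy* lower), v 0.0705%. Across all 4 groups it called 4, v 0.149%. In the remaining pair and the interaction it called 0, v 0.0157 and 0.0313%. *Hcrt*, the lateral hypothalamic gene by which the authors judged the punches, averaged 478 ± 430 reads in HFD NoDS (SD, n = 5) v 74.4 ± 29.6 in RC NoDS (n = 5), and the part of the position of the punch in this value was not tested. The authors describe *Hcrt* as similar between their groups, in these libraries and by quantitative PCR. The median log2 fold change of the 25 genes in HFD NoDS v RC NoDS was 0.15, v -0.02 for the 10 members and 0.01 for all genes.

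Among 9 tested genes for regulators of granin and convertase genes, edgeR called 1, *Stat3*, the transcription factor activated by leptin. *Stat3* averaged 3841.6 ± 253 reads (SD, n = 5) in HFD NoDS, v 3010 ± 237 (n = 5) in RC NoDS and 2958.8 ± 245 (n = 5) in HFD → RC. Its log2 fold change was 0.37 in each of these pairs (edgeR adjusted p = 0.0454 and 0.0896), in which edgeR called 0.0783 and 0.0705% of all genes.

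Markers of the cell types in a punch were counted alongside. EdgeR called 0 of 12 neuron markers in any comparison, although 3 to 4 of them had an unadjusted p under 0.05 in each pair other than HFD → RC v RC → HFD (1 of 12), against 5.35 to 8.10% of all genes in the 6 pairs. Summed neuron marker reads averaged 73294 ± 3950 for RC NoDS (SD, n = 5), 72192 ± 4670 for HFD NoDS (n = 5), 77478 ± 2950 for RC → HFD (n = 6) and 75904 ± 4780 for HFD → RC (n = 5), so the 2 switch groups, which had the highest *Pcsk2*, also had the highest neuron sums. With neuron markers as a covariate, the *Pcsk2* log2 fold change v RC NoDS was 0.21 in RC → HFD and 0.22 in HFD → RC. In the interaction, 5 of 12 neuron markers had an unadjusted p under 0.05, against 8.84% of all genes, and their median was -0.18. With them as a covariate the *Pcsk2* interaction was -0.33 (edgeR adjusted p = 0.314). The markers did not all move alike, since *Slc17a6* had its highest mean and *Slc32a1* its lowest in HFD → RC. The part of neuron content in the *Pcsk2* reads was not tested.

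Of the oligodendrocyte markers, edgeR called 3 of 7 in HFD → RC v RC NoDS, v 0.282% of all genes. Among them were *Mbp* at 1.04 and *Mobp* at 1.19 on the log2 scale (adjusted p = 0.115 and 0.0614). There and in HFD NoDS v RC NoDS, 7 of 7 had an unadjusted p under 0.05, v 8.10 and 7.41% of all genes. That count was 6 in HFD → RC v RC → HFD (v 5.35% of all genes), 1 in the interaction (v 8.84%) and 0 in the other 3 pairs (v 6.51 to 7.93%). Their summed reads averaged 45478 ± 8620 for RC NoDS (SD, n = 5), 69396 ± 24900 for HFD NoDS (n = 5), 52442 ± 7580 for RC → HFD (n = 6) and 85345 ± 35600 for HFD → RC (n = 5). *Mbp* gave 49.9% of these reads, and 0 of the 7 markers were at 0 in all libraries. Across all 4 groups edgeR also called *Mobp* and 1 of 7 astrocyte markers, *Gfap* (adjusted p = 0.125 each), v 0.149% of all genes.

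EdgeR called 0 of 7 microglia, 7 endothelium and pericyte, 7 tanycyte and ependyma, 2 choroid plexus and 7 pituitary markers tested in any of the 8 comparisons. At an unadjusted p under 0.05 the comparisons held 0 to 2 microglia, 0 to 2 endothelium and pericyte, 0 to 3 tanycyte and ependyma, 0 to 1 choroid plexus and 0 to 4 pituitary markers. Of all genes, 0.00783 to 0.282% were called over the comparisons, and 5.35 to 8.84% had an unadjusted p under 0.05. Tanycyte and ependyma markers, none of them called, had median log2 values of -0.21 in RC → HFD and -0.21 in HFD → RC v RC NoDS and 0.43 in the interaction. Their summed reads averaged 9909 ± 1310 for RC NoDS (SD, n = 5), 10138 ± 814 for HFD NoDS (n = 5), 8278 ± 1100 for RC → HFD (n = 6) and 8352 ± 1160 for HFD → RC (n = 5), the reverse of the order of *Pcsk2* between switched and unswitched groups, and their part in the *Pcsk2* reads was not tested. Pituitary markers summed to 122 to 3261 reads per library. *Cga*, the most abundant of them, averaged 258.1 reads.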

How the data were processed

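The authors sequenced 21 libraries (TruSeq Stranded mRNA, 100 bp single-end reads), merged runs with Picard 2.7.1, aligned reads to mm9 with STAR 2.5.1b, and used PORT to remove ribosomal and mitochondrial reads and to re-sample the rest to one depth, per their notes and methods. Whole-number counts per gene were deposited. Groups and replicate numbers came from the sample labels. Genes averaging at least 50 reads were normalized by TMM and tested with edgeR 4.0.16 (quasi-likelihood, R 4.3.3), fitting 4 group means, with Benjamini-Hochberg adjustment over all 12768 genes. DESeq2 1.42.0, limma-voom (limma 3.58.1), other filters, scalings and covariates, and each library left out in turn were alternatives, and 2 more were chosen after seeing the data.

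Correlations used log2 CPM (TMM, prior count 2) with 100000 permutations of libraries within groups (Python 3.11.15, numpy 2.4.6, scipy 1.17.1, two-sided). Counting error alone is small at this depth, so the spread between libraries sets the precision. The scripts' tests were checked on simulated data.

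Besides the members, gene lists covered other convertases, processing partners, vesicle machinery, cargo prohormones, peptide-degrading enzymes, regulators, and markers of neurons, astrocytes, oligodendrocytes, microglia, endothelium and pericytes, tanycytes and ependyma, choroid plexus and pituitary. Of 163 listed symbols 162 matched, 3 through older symbols, and *Pou1f1* did not. All members are named, with called genes of a list, otherwise up to 4 with the smallest p across all 4 groups, and the 3 genes most like each member. Members and lists were chosen with earlier results of these data known. Sequences are from RefSeq (GRCm38.p6).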

Additional observations from a re-analysis of the deposited data

Results flagged for a closer look

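In 7 groups of libraries, the highest or lowest value lay apart from the rest, its gap to the nearest other library taking up more of the range of the group than Dixon's 95% critical value. Chance alone places about 1 in 20 groups past that limit, and 76 groups of member reads, marker reads and shares of zero counts were examined, 40 of them of members. HFD → RC replicate 15 was high for both PC2 and its chaperone, with 5092 *Pcsk2* reads (next 4730) and 5226 *Scg5* reads (next 4704). HFD → RC replicate 16 had 11714 *Pam* reads (next 9636), besides the most *Pcsk1* and *Scg3* reads of its group. RC → HFD replicate 8 had 6489 *Chgb* reads (next 7821) and also the fewest *Chga* reads of its group. Microglia marker reads were 7387 in HFD NoDS replicate 23 (next 6255), choroid plexus marker reads 1029 in RC → HFD replicate 12 (next 1236), and pituitary marker reads 3261 in HFD → RC replicate 13 (next 654).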

How the results depend on the processing

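The number of members called was 0 under 273 of 278 alternatives over the 8 comparisons, and 1 under the other 5. DESeq2 called 1 member, *Pcsk2*, in RC → HFD v RC NoDS (with 96 of all genes) and 1, *Pcsk2*, in the interaction (with 116). DESeq2 gave *Pcsk1* no adjusted p in the first of these, although it had an unadjusted p (0.356). DESeq2 thus adjusted there over fewer genes than the 12768 of edgeR, and the 2 adjusted p-values are not on one footing. Leaving out each library in turn gave 0 to 1 members called in HFD → RC v RC NoDS, the 1 being *Pcsk1* without HFD → RC replicate 16 (with 203 of all genes), and 0 to 1 in the interaction, the 1 being *Pcsk2* without HFD NoDS replicate 20 (with 123). With HFD NoDS replicate 20 and HFD → RC replicate 17 left out together, an alternative chosen after seeing the data, edgeR called 1 member, *Pcsk2*, in the interaction (-0.42 on the log2 scale, adjusted p = 0.0859), and 191 of 12744 genes. The cause of these differences was not tested.

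In 6 of 7 comparisons the *Pcsk2* log2 fold change kept its sign under every alternative run, HFD → RC v RC → HFD (0) being the other. It ran from 0.20 to 0.26 in RC → HFD v RC NoDS, 0.19 to 0.26 in HFD → RC v RC NoDS and -0.42 to -0.29 in the interaction. *Cpe* in HFD NoDS v HFD → RC ran from -0.20 to -0.11. Of the 70 member fold changes, interaction included, 39 changed sign under at least 1 alternative, and so did 6 of the 26 larger than 0.1. The largest of these was the *Chga* interaction, 0.28, which was -0.23 with the share of zero counts as a covariate. No paired analysis was possible because replicate numbers do not repeat across groups.

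Each library pools 2 mice and a group has 5 or 6 libraries, and the 95% intervals of the members in pairs of groups reached from -0.52 to 0.64 on the log2 scale. Reads do not show enzyme activity or peptide amounts.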
